A study of Mus musculus with 26 samples.

Results

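YFP-positive liver cells of mice fed the liver toxin DDC for 14 days were compared with YFP-positive cells of mice fed it for 3 days. The comparison holds 6 arrays, 2 of day 14 and 4 of day 3, out of 26 samples in the series, of which 20 were analysed here. Members were taken by their labels alone: every array labelled YFP-positive at either day that had a scanner file, which left out 1 of the 3 day 14 samples. All 6 arrays carry RNA of Foxl1-Cre; RosaYFP mice aged 6 to 10 weeks, and all of these mice ate DDC, so neither group is a healthy control. In these mice the Foxl1 promoter drives the recombinase that switches on YFP for good, so a YFP-positive cell is one with a history of Foxl1-Cre and need not transcribe Foxl1 when it is sorted. Cells were sorted as YFP-positive from the non-parenchymal liver fraction, from which cells with the leukocyte surface protein CD45 had been set aside. Arrays of YFP-positive cells at day 7 (3 arrays) and of YFP-negative cells at days 3, 7 and 14 (3 arrays each), together with 2 arrays of unsorted cells of chow-fed mice, entered the same fit and helped to set its estimate of the spread. Nothing in the labels says that samples of a group came from separate animals, so p-values measure the spread between these samples only. Foxl1 itself is not analysed here.

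DDC damages bile ducts and hepatocytes, and the liver answers with a ductular reaction, in which cells with features of bile duct epithelium multiply around the portal tracts. These cells carry keratins and tight junction proteins of the biliary epithelium and lie in a niche of portal myofibroblasts, endothelium and macrophages that supply Wnt, Notch and inflammatory signals. The comparison asks how cells marked by Foxl1-Cre differ between the early and the later phase of this reaction.

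Each array measured 26647 genes, 1 probe per gene. Between 81.0 and 87.7 percent of the spots on each of the 6 arrays stood well above background, and no spot was saturated. A level is the log2 signal less the array's 75th percentile, so that 0 marks a gene as bright as that percentile, and the median gene lay between -2.67 and -2.18. Levels of different genes are not comparable, since each is read by its own probe. Array-to-array correlations over all genes ran from 0.784 to 0.916 among the day 3 arrays and reached 0.890 for the 2 day 14 arrays. Day 3 array 4 gave the low values, 0.784 to 0.831, while the other day 3 arrays correlated at 0.893 to 0.916. It was also the dimmest of the 6, with a median processed signal of 208 against 352 to 405. In the fit with array weights it had the lowest weight of all arrays (0.231).

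Both day 14 arrays carried markers of bile duct cells, and 2 day 3 arrays stood apart from their group. Over 26 biliary and progenitor markers the median level was 0.84, 1.39, -1.69 and 2.49 on day 3 arrays 1 to 4, and 1.91 and 2.19 on the day 14 arrays. Day 3 array 3 was thus the lowest in biliary markers, and Krt19, a keratin of bile duct cells, read -1.47 there against 2.26 to 4.48 on the other 3. Day 3 array 4 went the other way: its median over 20 macrophage markers was -1.95 against 1.92 to 3.54 on the other day 3 arrays, over 24 stellate and myofibroblast markers -2.85 against -0.21 to -0.02, and over 19 endothelial markers -0.05 against 2.43 to 3.89. In these respects array 4 lay nearer to the day 14 arrays than to its own group, except in the endothelial markers, where the day 14 arrays read 3.18 and 2.01. Array 4 was also the dimmest of the arrays compared, and the part of signal strength in its differences was not tested. Some results that turn on these arrays are also given without them. For the stellate and myofibroblast, antigen presentation and Notch lists the median without array 4 is not given singly. Over all 17 alternatives, which include leaving out each array, these medians ran from -2.22 to -0.48, -1.08 to -0.28 and 0.12 to 0.56. Ptprc, the gene of CD45, was well above background on 3 of the 4 day 3 arrays and on both day 14 arrays (3.72, 1.51, 2.16 and -7.54 at day 3, -2.60 and -1.0 at day 14), although the sort was for CD45-negative cells.

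Few genes separated the days beyond the spread between arrays. In limma's moderated test over all genes, 7 of 26647 genes passed an adjusted p of 0.05, which is 0.0263 percent; all 7 fell from day 3 to day 14 and 0 rose. At an unadjusted p of 0.05 there were 1693 genes, 6.35 percent of all, of which 812 (3.05 percent) were higher and 881 (3.31 percent) lower at day 14. The median change of all genes was -0.04 on the log2 scale, with 47.2 percent of genes above 0 and 52.8 percent below. In 10.8 percent of genes (2877 of 26580 with all 6 values) the groups did not overlap, 5.24 percent with day 14 higher and 5.58 percent with day 14 lower. The count of 7 depended on single arrays: it was 35 without day 3 array 4 (5 rose, 30 fell), 11 without day 3 array 3, 8 and 5 without day 3 arrays 1 and 2, 21 without day 14 array 1 and 42 without day 14 array 2. It was 0 in a fit of the 6 arrays alone, with 985 genes at an unadjusted p of 0.05. For a single gene, an exact permutation test of 2 arrays against 4 cannot give a p below 0.0667. The calls rest on limma's model of the spread, estimated for each gene over all 7 groups (13 residual degrees of freedom). Sharing across genes added 2.32 prior degrees of freedom.

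Of the 7 genes, Ifi27, Fam65b and Plcb1 carry a gene symbol on the array, a further one carries the clone identifier AI851716, which RefSeq lists as a synonym of Smarcal1, and the others have only clone or transcript identifiers. Ifi27, now named Ifi27l2a, is a small membrane protein gene induced by interferon. Its level was 3.05, 0.74, 1.77 and -0.03 on the 4 day 3 arrays and -6.59 and -3.99 on the day 14 arrays. The groups did not overlap, and even the lowest day 3 array stood well above the higher day 14 array. The fall was -6.67 ± 1.03 (log2 change ± standard error, limma adjusted p = 0.0388). The 2 other probes of Ifi27 changed in the same direction, by a median of -4.74. The probe lies at chr12:104680394-104680453 of the mm9 build. At day 7 Ifi27 read -0.30, 1.83 and 2.91, within or near the range of day 3. The call rested on single arrays: the limma adjusted p was 0.0768, 0.0751 and 0.0532 without day 3 arrays 1, 2 and 3, and 0.214 without day 14 array 1.

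Fam65b, now Ripor2, encodes an inhibitor of the small GTPase RhoA. It read -1.30, -1.65, -1.84 and -0.99 at day 3 and -8.08 and -8.65 at day 14, and neither day 14 array was well above background for this probe. The day 3 arrays lay within a narrow band and the day 14 arrays far under it. The measured change was -6.92 ± 0.86 (limma adjusted p = 0.0089). With the dimmest detected signal of each day 14 array as a floor Fam65b was nominally at least 73.7-fold lower. The 3 other probes of the gene had the same sign but smaller differences, with a median of -1.46. With normexp background correction, which treats dim spots otherwise, the difference was -2.77 (limma adjusted p = 0.55). With the mean of all probes of the gene it was -2.93 (limma adjusted p = 0.677). These values fall short of the nominal bound. Its probe lies at chr13:24823803-24823862 of mm9.

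Plcb1 encodes phospholipase C beta, which cleaves membrane phosphoinositide after activation of Gq-coupled receptors. It read 0.52, 0.46, 0.98 and 0.56 at day 3, and -2.73 and -3.90 at day 14, both well above background. The day 3 arrays differed among themselves by far less than the distance to day 14. The change was -3.94 ± 0.50 (limma adjusted p = 0.0089), and its 3 other probes had the same sign with a median of -1.055. With the mean of all probes of the gene in place of the brightest one, the difference was -1.82 (adjusted p = 0.713). Without day 14 array 2 the limma adjusted p of Plcb1 was 0.0538. The probe lies at chr2:135190506-135190565 of mm9.

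Smarcal1 (AI851716 on the array) encodes an annealing helicase that acts at stalled replication forks. It falls outside the rule for named genes, which left out clone identifiers, and is named after its values were seen. It read -1.99, -2.65, -2.63 and -2.23 at day 3, -1.62, -1.36 and -1.75 at day 7, and -6.51 and -7.37 at day 14. The day 3 and day 7 arrays lay close together and both day 14 arrays far under them, though still well above background. The change was -4.56 ± 0.58 (limma adjusted p = 0.0089), beside -0.05 ± 0.55 in YFP-negative cells. The test of the difference between the fractions gave -4.51 ± 0.80 (limma adjusted p = 0.850). With normexp background correction the change was -1.47 (limma adjusted p = 0.884). Its probe, the one probe of this gene name, lies at chr1:72682048-72682107 of mm9.

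Macrophage markers also differed between the arrays, with a median of -1.95 on day 3 array 4 and -1.15 and 0.21 on the day 14 arrays. On array 4 Ifi27 read -0.03, Fam65b -0.99 and Plcb1 0.56. The part of macrophages in these changes was not tested. Without array 4 the changes of Ifi27, Fam65b and Plcb1 were -7.14, -6.77 and -3.96. In YFP-negative cells the same 2 days differed by -2.52 ± 0.97 for Ifi27, -1.89 ± 0.81 for Fam65b and -0.98 ± 0.48 for Plcb1, none past the threshold. The test of the difference between the 2 fractions gave -4.15 ± 1.41, -5.04 ± 1.18 and -2.96 ± 0.69, with a limma adjusted p of 0.9996 for each, so a change particular to YFP-positive cells was not shown. In that test 0 of 26647 genes passed the threshold and 761 (2.86 percent) had an unadjusted p under 0.05; with normexp background correction 1 gene passed and 4453 had such a p.

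**Figure D1:**
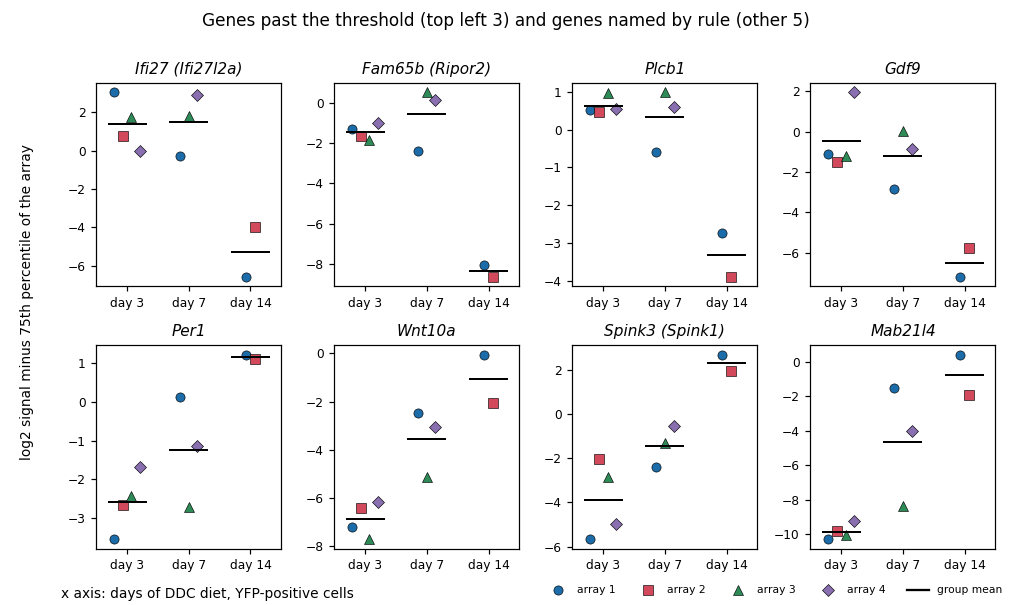
Level of 8 genes on each array of YFP-positive cells (log2 signal minus the 75th percentile of the array; symbols give the array number, lines the group means) against days of DDC diet. Ifi27, Fam65b and Plcb1, past the threshold, lie lower on both day 14 arrays than on all 4 day 3 arrays; the other 5 are shown as values and did not pass.

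No gene passed the threshold as higher at day 14. The genes described next are the ones of smallest p whose 6 arrays did not overlap between the groups. Their sign was the same on both slides and under other processing, and their absolute log2 change was at least 1. Their higher group was well above background on every array. They are values, not calls. Of 26647 genes 1563 met those conditions, clone identifiers included, 886 with day 14 higher and 677 with day 14 lower. The most distant was 2310007B03Rik, now Mab21l4. It was well above background on none of the 4 day 3 arrays (-10.29, -9.77, -10.04 and -9.22) and on both day 14 arrays (0.42 and -1.91). With the dimmest detected signal of each day 3 array as a floor it was nominally at least 120.1-fold higher (measured change 9.09 ± 1.64, limma adjusted p = 0.110). With normexp background correction its log2 change was 4.58 (limma adjusted p = 0.174), short of that bound. At day 7 it read -1.52, -8.37 and -3.98, so arrays of that day spread over most of the distance. In the authors' deposited table its fold change against day 0 was -1.29 at day 3 (a fall is written as a negative fold), 31.7 at day 7 and 245 at day 14, with false discovery rates of 100, 2.2 and 0 percent.

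Wnt10a, a secreted Wnt ligand, showed a similar order of days. It read -7.23, -6.43, -7.73 and -6.18 at day 3, -2.47, -5.13 and -3.06 at day 7, and -0.05 and -2.05 at day 14. No array of one of these days overlapped with another day, and every array was well above background at days 3 and 14. The change from day 3 to day 14 was 5.84 ± 1.16 (limma adjusted p = 0.136), with 7.17 on slide 1 and 4.39 on slide 2. The biliary median was 2.49 on day 3 array 4, where Wnt10a read -6.18, and 1.91 and 2.19 on the day 14 arrays; the part of bile duct cells in the change of Wnt10a was not tested. In the authors' deposited table Wnt10a stood at 1.45-fold, 11.4-fold and 76.8-fold of day 0 at days 3, 7 and 14, with false discovery rates of 39.5, 1.12 and 0 percent. That table was made from the same series and is not independent. In YFP-negative cells its difference over the same days was 3.34 ± 1.09.

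Spink3, the mouse gene now named Spink1, encodes a secreted trypsin inhibitor. It read -5.67, -2.04, -2.84 and -4.99 at day 3 and 2.67 and 1.93 at day 14. The groups did not overlap, but the day 3 arrays differed among themselves by more than 3.5 log2 units. The change was 6.18 ± 1.37 (limma adjusted p = 0.217), beside 4.23 ± 1.29 in YFP-negative cells. The authors' deposited table gives -1.64, 4.14 and 54.4 as its folds against day 0 at days 3, 7 and 14.

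The other higher genes by this rule had limma adjusted p-values between 0.110 and 0.249. Hpcal4, a neuronal calcium sensor, was well above background on no day 3 array but on both day 14 arrays (-2.65 and -6.07). It was nominally at least 9.81-fold higher, but its log2 change of 4.78 became 2.25 with normexp background correction, short of that bound. Shq1, an assembly factor of box H/ACA ribonucleoproteins, read -7.94 to -4.65 at day 3 and -1.1 and 1.05 at day 14. Slc5a9, a sodium-coupled sugar transporter, read -9.21 to -5.21 at day 3 and -1.20 and -1.23 at day 14. The remaining ones were Hdx (change 6.52), Gprin1 (5.84), Syt14 (2.78), Ppp2r1b, a scaffold subunit of protein phosphatase 2A (2.59), and Ap1gbp1, now Synrg, a partner of clathrin adaptors (1.56). Of the 2 other probes of Ppp2r1b only 1 had the same sign. With the mean of all its probes the change was 1.15 (limma adjusted p = 0.831). Slc5a9, Hdx and Gprin1 were dim at day 3, with 1, 1 and 2 of 4 arrays well above background, so the day 3 side of their changes is poorly measured.

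On the lower side the rule adds 9 genes with adjusted p-values between 0.110 and 0.221. Gdf9, a TGF-beta family ligand best known from the oocyte, read -1.1, -1.5, -1.21 and 1.96 at day 3 and -7.20 and -5.79 at day 14, and array 4 was here the highest. Its change was -6.03 ± 1.1, beside 1.07 ± 1.04 in YFP-negative cells. Rel, a subunit of NF-kappaB, read -2.67 to -1.27 at day 3 and -5.05 and -5.32 at day 14. Cd80, a costimulatory ligand, read -4.98 to -0.77 and then -9.45 and -6.19, with 1 of 2 day 14 arrays well above background. Ulbp1, a ligand of the natural killer receptor NKG2D, read -2.24 to 0.27 and then -3.80 and -5.64. The difference was -2.35 for BC006779, now Helz2, a helicase and nuclear receptor coactivator, and -2.45 for Arhgap10, a GTPase-activating protein. It was -3.91 for Dnajc11, a mitochondrial co-chaperone. Spata9 was well above background on 1 of 2 day 14 arrays, and its measured difference of -3.96 became -0.40 with normexp background correction. Tppp, which promotes tubulin polymerisation, had a measured difference of -5.07. Tppp was not well above background on either day 14 array and was nominally at least 11.2-fold lower. With normexp background correction its difference was only -0.84 (limma adjusted p = 0.898), short of that bound.

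Slides gave a check on single arrays. Arrays 1 of both days lay on slide 1 and arrays 2 of both days on slide 2, so each slide holds 1 array of each day; day 3 arrays 3 and 4 lay on slides without a day 14 array. Over 26596 genes the 2 within-slide differences correlated at only 0.106, and 52.3 percent of genes had the same sign on both slides. For Ifi27 they were -9.64 and -4.73, for Fam65b -6.79 and -7.00, and for Plcb1 -3.25 and -4.36. With the slide as a fixed block in the fit of all groups, 15 genes passed (3 rose, 12 fell), of which 2 were among the 7; the adjusted p was then 0.02 for Fam65b, 0.0749 for Plcb1 and 0.116 for Ifi27.

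**Figure D2:**
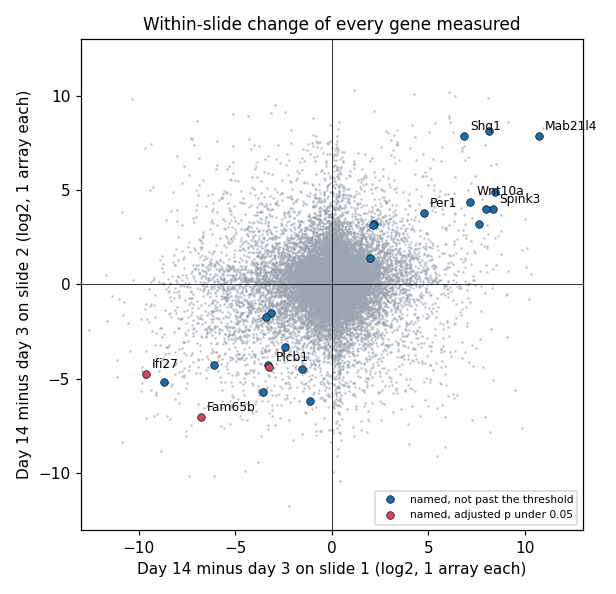
Day 14 minus day 3 on slide 1 (x axis) against slide 2 (y axis), log2, each 1 array minus 1 array. Grey points are all genes with both values, which spread in every quadrant (correlation 0.106); red points are Ifi27, Fam65b and Plcb1, past the threshold, and blue points the other genes named by rule, which the rule required to have the same sign on both slides.

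Markers of bile duct and progenitor cells had mostly positive changes, and none passed the test. Of 26 members, 25 had a change above 0, with a median of 0.96 against -0.04 for all genes; 0 rose and 0 fell past the threshold, and 1 lay without overlap above day 3, beside 5.24 percent of all genes. Cldn4, a tight junction claudin, was that gene: it read -0.73, 1.26, -2.90 and -1.48 at day 3 and 2.01 and 2.16 at day 14 (change 3.05 ± 1.38, limma adjusted p = 0.757). Krt7, a keratin of bile ducts, read 2.70, 1.52, -1.52 and 3.94 at day 3 and 3.43 and 3.76 at day 14, so that array 4 was above both. Cftr, the chloride channel of cholangiocytes, read 0.62, 0.93, -1.61 and 1.96, and then 1.46 and 1.61. The median of the list turned on array 3: without it, the median was 0.22, and without array 4, 1.58. In bulk samples such as these, fewer cells of a type and less RNA per cell cannot be told apart.

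Genes of epithelial junctions followed the same arrays. Of 18 members 17 were above 0 with a median of 0.86, and none passed. Pkp3, a desmosomal plakophilin, read -1.55, -1.94, -2.95 and -1.58 at day 3 and 1.79 and -0.52 at day 14 (2.64 ± 0.98, limma adjusted p = 0.625). Marveld2, a protein of tricellular junctions, also did not overlap, with -2.18 to 1.26 at day 3 and 1.47 and 2.33 at day 14. Cdh1, the epithelial cadherin, read 2.36, 2.15, -1.43 and 3.80 and then 2.36 and 2.73. Without day 3 array 3 the median of the list was -0.02, without day 3 array 4 1.67 and without day 14 array 2 0.31.

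Markers of immune cells had mostly negative changes, again with none past the threshold apart from Ifi27 in the interferon list. Of 20 macrophage genes 18 were below 0 (median -1.56), of 12 neutrophil genes measured 12 (median -2.80), and of 18 lymphoid genes 13 (median -1.38). Laptm5, a lysosomal protein of blood cells, read 3.31, 0.95, 1.92 and 0.67 at day 3 and -6.53 and -4.27 at day 14. The groups were far apart, and the change was -7.12 ± 1.76 (limma adjusted p = 0.302). Cd68, a lysosomal protein of macrophages, read 2.02, 1.57, 1.16 and -1.05 and then -2.96 and -2.20. Adgre1, a surface receptor of macrophages, did overlap: 3.74, 2.21, 2.79 and -5.86 at day 3, and -2.40 and 0.36 at day 14.
Among lymphoid genes, Gzmb, the cytotoxic protease granzyme B, read -0.74, -3.83, -3.90 and -5.59 at day 3 and was not well above background at day 14 (-9.84 and -9.72). Cd79b, a subunit of the B cell receptor, read 0.62, -0.73, -0.71 and -2.04, and then -3.66 and -4.41. S100a8, an abundant neutrophil protein, read 2.41, -1.04, 1.81 and -8.29 and then -1.18 and -1.59, so the day 14 arrays lay inside the range of day 3. Without day 3 array 4 the median was -3.11 for macrophage and -3.85 for neutrophil genes, and without array 1 -0.90 and -1.80. The lymphoid median was -0.67 without day 3 array 1. In YFP-negative cells the medians over the same days were -2.93, -2.62 and -0.86 for macrophage, lymphoid and neutrophil genes.

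Genes of stellate cells and myofibroblasts were lower on day 14 array 1 and on day 3 array 4 than elsewhere. Of 24 members 18 were below 0, with a median of -1.67, and none passed. Col1a1, the main chain of fibrillar collagen, read -0.09, 1.90, 1.49 and -7.21 at day 3 and -7.66 and -6.10 at day 14. Array 4 of day 3 was as low as the day 14 arrays, and the change was -5.90 ± 1.77 (limma adjusted p = 0.479). Col5a1, another fibrillar collagen, did not overlap: 2.48, 1.08, 1.5 and -2.91, and then -3.44 and -3.48 (-4.0 ± 1.04, limma adjusted p = 0.324). Tagln, a smooth muscle and myofibroblast actin-binding protein, read 0.15, 1.38, 1.46 and -0.50 and then -1.73 and -1.35. The median was -0.48 without day 14 array 1 and -2.03 without day 14 array 2. In YFP-negative cells it was 0.31, with 15 of 24 above 0.

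Endothelial markers held no common direction. Of 19 members 13 were above 0 (median 0.25), but the within-slide medians were 0.78 on slide 1 and -0.94 on slide 2, and without day 3 array 4 the median was -0.36. Pecam1, an adhesion molecule of endothelium, read 2.22, 3.13, 3.65 and -1.42 at day 3 and 3.17 and 2.10 at day 14. Of 8 mesothelial markers 3 were above 0; Msln, mesothelin, read -1.09, -4.52, -2.63 and -1.16 at day 3, 1.92, 0.04 and -3.11 at day 7, and 2.27 and 3.04 at day 14 (5.01 ± 1.22, limma adjusted p = 0.290), while Upk3b, another mesothelial marker, read -8.90 to -3.06 and then -8.35 and -6.55. Erythroid markers split evenly, 5 of 10 above 0.

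**Figure D3:**
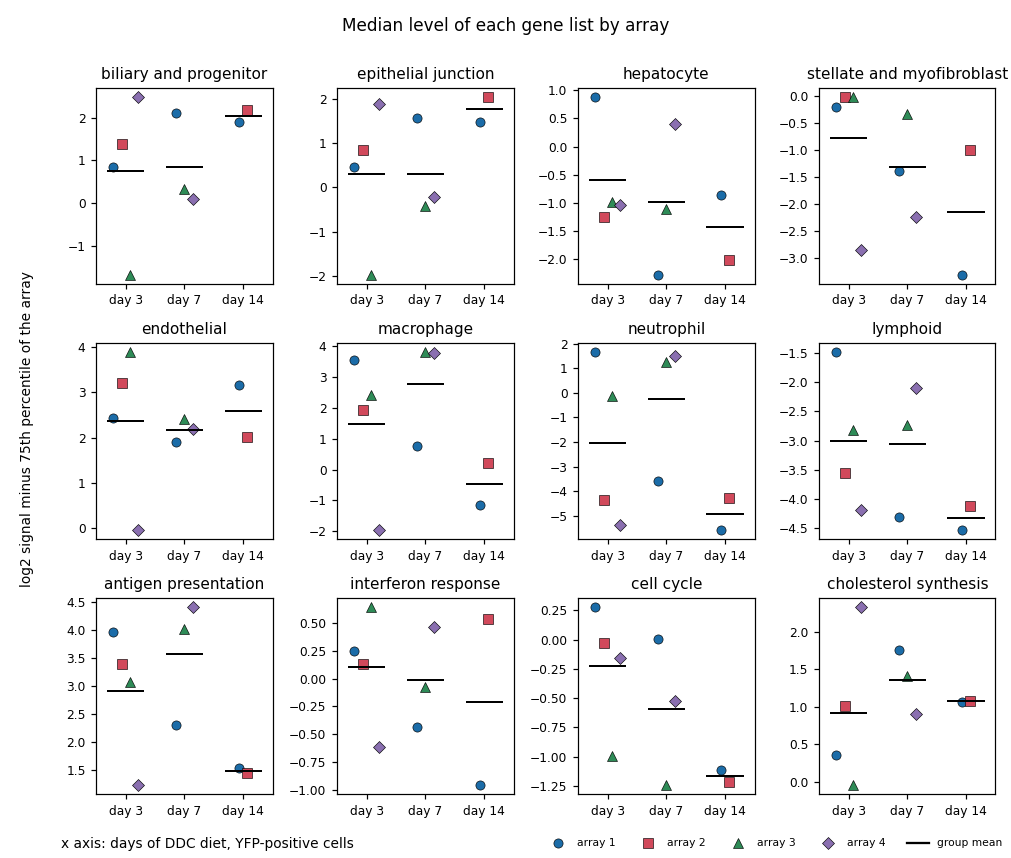
Median level over the measured members of 12 gene lists on each array of YFP-positive cells (y axis, log2 signal minus the 75th percentile of the array) against days of DDC diet; symbols give the array number and lines the group means. Day 3 array 3 is lowest in biliary (-1.69) and junction genes and day 3 array 4 lowest in macrophage (-1.95), stellate and endothelial genes of its group.

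In the interferon list 20 of 31 genes were below 0 (median -0.28), and 1, Ifi27, fell past the threshold. Mx2, an antiviral GTPase, read -1.34, -0.74, -2.11 and -2.83 at day 3 and -4.29 and -3.25 at day 14, and Usp18, which removes the ubiquitin-like protein of this pathway, -1.0, -1.46, -1.36 and -1.36 and then -1.75 and -3.05. Ifit1, the first member of the list, read -3.70 on one day 14 array and 0.63 on the other, below and above all day 3 arrays. The within-slide medians of the list were -0.88 and 0.02, and without day 14 array 1 the median was 0.05. Of 15 genes of antigen presentation 13 were below 0 (median -0.78): H2-Aa, a class II chain, read 4.58, 3.61, 3.89 and -1.82 at day 3 and -1.56 and 0.05 at day 14, with array 4 again lowest, and Psmb8, a subunit of the immunoproteasome, 2.37, 1.74, 1.78 and 4.53 and then 1.52 and 1.44. The median of that list was -0.30 without day 14 array 1 and -0.44 without day 3 array 1.

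Of 28 cell cycle genes 21 were below 0, beside 52.8 percent of all genes, with a median of -0.37, and none passed. Mki67, the proliferation marker Ki-67, read 2.45, 2.5, 1.56 and 2.10 at day 3 and 1.47 and 2.31 at day 14, an overlap of the groups. Prc1, a protein of the spindle midzone, did not overlap, with -0.50 to 0.43 at day 3 and -1.99 and -1.39 at day 14 (-1.65 ± 0.67, limma adjusted p = 0.686). The median was between -0.47 and -0.22 in all 17 alternatives run.

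Hepatocyte genes showed no shared direction, with 11 of 23 measured above 0 and a median of -0.03. Alb, albumin, read 5.33, 4.43, 4.11 and 6.22 at day 3 and 5.03 and 4.19 at day 14. Apob, the apolipoprotein of very low density lipoprotein, was the 1 gene of the list above day 3 without overlap (0.29 to 1.79, and then 2.46 and 2.38). Cyp3a11, a drug-metabolising cytochrome, was the 1 below (-2.89 to 0.88, and then -4.60 and -3.23). Over all genes, 5.24 percent lay above and 5.58 percent below without overlap. Of 12 fetal liver and imprinted genes 9 were above 0 (median 0.43). Gpc3, a heparan sulfate proteoglycan of fetal liver, read -1.25, -2.34, -2.49 and -3.69 at day 3, -0.83, -0.81 and -1.79 at day 7, and 0.99 and 0.04 at day 14 (2.95 ± 0.73, limma adjusted p = 0.299). Afp, alpha-fetoprotein, read -4.76 to -0.99 and then -2.75 and -5.19. Among 20 genes of oxidative stress and heme 9 were above 0. The quinone reductase Nqo1 read 0.80, 1.09, 1.41 and 1.31 and then 2.59 and 2.70 (1.49 ± 0.56, limma adjusted p = 0.632). Slc7a11 went the other way, with the lowest change of that list (-5.57).

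Cholesterol synthesis genes were above 0 in 12 of 15 members, with a median of 0.77. Fdft1, squalene synthase, read 2.66, 2.70, 0.80 and 3.12 at day 3 and 3.49 and 3.83 at day 14 (1.34 ± 0.63, limma adjusted p = 0.782), while Stard4, a sterol carrier, read -0.60 to 0.76 and then -1.52 and -2.43. The median over the alternatives ran from 0.47 to 0.93.

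Among signalling genes the Wnt list held 3 of 17 members with an unadjusted p under 0.05, all higher at day 14, beside 3.05 percent of all genes. The ligand Wnt10a was described above. Rnf43, a membrane ubiquitin ligase that removes Wnt receptors, read -3.81, -1.99, -5.55 and -5.53 at day 3 and -0.97 and 0.80 at day 14 (4.14 ± 1.07, limma adjusted p = 0.324). Axin2, a scaffold of the beta-catenin destruction complex and a target gene of Wnt signalling, read -4.87, -4.70, -1.79 and -3.73 and then -2.39 and -0.96, an overlap through array 3 (2.10 ± 0.83, limma adjusted p = 0.660). Both are feedback inhibitors of the pathway in textbook accounts. The median of the list was 0.27, and it was below 0 when day 3 array 3 (-0.09) or day 14 array 2 (-0.24) was left out.

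Notch genes had 11 of 15 members above 0 (median 0.46), Hedgehog genes 9 of 14 (0.19, and -0.01 with the mean of the probes), TGF-beta and YAP target genes 9 of 16 (0.44), inflammatory signals 14 of 21 (0.44), immediate early genes 15 of 20 (0.38), and basement membrane genes 16 of 20 (0.22), and none of these passed the threshold. Tgfb2, a TGF-beta ligand, read 0.15, 1.26, -1.36 and 0.49 at day 3 and 1.79 and 2.12 at day 14 (1.83 ± 0.82, limma adjusted p = 0.751). Ccl2, a chemokine for monocytes, read 1.32, 1.51, 0.10 and 2.29 and then 2.98 and 2.73, without overlap (1.55 ± 0.74, limma adjusted p = 0.792). Notch1, a receptor, read 1.95, 2.17, 2.96 and -0.39 and then 2.08 and 1.53. Trib3, a stress-induced pseudokinase in the unfolded protein response list, read -2.95, -4.78, -3.90 and -5.01 and then -1.55 and -1.65 (2.56 ± 0.64, limma adjusted p = 0.305), whereas Hspa5, the endoplasmic reticulum chaperone BiP of the same list, read 4.25 to 5.66 and then 4.19 and 3.75. Of 13 motile cilium genes measured 7 were above 0 (median 0.30), but without day 3 array 1 the median was -0.18 with 5 above 0. Foxj1, the master factor of motile cilia, read 2.58, 3.31, -1.43 and 3.97 and then 3.31 and 3.40.

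Per1, the gene of smallest p among the higher named genes that were well above background on all 6 arrays, belongs to the circadian clock, and the other clock genes were therefore listed after its value had been seen. In this clock CLOCK and BMAL1, the product of Arntl, bind E-box sequences and switch on the Per and Cry genes, whose products shut them off, and also Nr1d1 and Nr1d2, which repress Arntl, and the PAR-type factors Dbp, Tef and Hlf, which bind D-box sequences. Because the list was drawn up after the values were seen, its counts are a description and carry no test. None of its 19 genes passed the threshold. Of the 19, 15 were above 0 with a median change of 1.53, and 9 did not overlap between the groups, beside 10.8 percent of all genes (8 higher, beside 5.24 percent, and 1 lower, beside 5.58 percent). Per1, whose value prompted the list, is counted among them.

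Per1, Per3, Dbp, Tef, Gm129, Nr1d1 and Nr1d2 read higher on both day 14 arrays than on every day 3 array. Per1 read -3.55, -2.67, -2.43 and -1.69 at day 3, 0.13, -2.72 and -1.15 at day 7, and 1.22 and 1.1 at day 14 (3.74 ± 0.71, limma adjusted p = 0.130). Per3 read -3.25, -5.86, -3.75 and -5.55 and then -0.35 and -0.25 (4.30 ± 1.52, limma adjusted p = 0.588). In both genes the 2 day 14 arrays nearly coincided, above all day 3 arrays. Dbp read 0.33, 0.08, 0.41 and -0.91 and then 2.96 and 1.87, and Tef -3.09, -2.29, -3.40 and -3.55 and then -1.03 and 0.00. Gm129, now Ciart, a repressor of CLOCK and BMAL1, read -4.79, -8.16, -3.10 and -6.66 and then -0.42 and -1.58. Nr1d1 read 0.78, 0.90, 0.27 and 2.42 and then 2.80 and 2.86, and Nr1d2 -0.56, -0.52, -0.46 and 0.04 and then 1.07 and 1.61.

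Arntl, Clock, Npas2 (change -1.01) and Cry1 had changes below 0. Of these only Cry1 did not overlap between the groups, by a narrow margin (-2.15 at day 14 against -2.11 at day 3). Arntl read -3.12, -1.62, -0.61 and -0.49 at day 3 and -4.90 and -1.92 at day 14, which overlap (-1.95 ± 0.86, limma adjusted p = 0.742). Clock read 1.08, 1.56, 1.55 and 0.11 and then -0.03 and 0.40, and Cry1 -1.76, -2.02, -2.11 and -1.49 and then -2.15 and -3.28. Per2, with -3.56 to -0.06 at day 3 and 0.32 and -0.38 at day 14, overlapped, as did Cry2. The median of the list was between 1.18 and 1.85 in all 17 alternatives run, and the within-slide medians were 1.20 and 1.29. YFP-negative cells had a median of 1.41 over the same days, with 13 of 19 above 0. The hour at which cells were collected is not given in the sources used here.

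The letters of the clock's binding elements are shown for genes of the list whose promoters hold them. The 250 bases before each start were searched on both strands for CACGTG, the E-box, and for TTATGTAA or TTACGTAA, forms of the D-box, which do not overlap; 16 of the 19 genes had a RefSeq promoter of the GRCm38.p6 build. CACGTG was found in 5 of the 16 (Per1, Ciart, Tef, Cry1 and Bhlhe41), beside 6.02 percent of all 32851 promoters, and the D-box forms in 1, beside 0.931 percent. A gene was counted if any of its start sites had the element, and some genes had 2 or 3 start sites. The percentages count each promoter singly, so the units are unlike. Capitals mark the elements, and each stretch runs 5′ to 3′ on the strand of the gene: Per1 (+) at chr11:69098768-69098803, Ciart (-) at chr3:95882252-95882359, Tef (+) at chr15:81802531-81802566, Cry1 (-) at chr10:85185094-85185129 and Per3 (-) at chr4:151044801-151044885.
Per1: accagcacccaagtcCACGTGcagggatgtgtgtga
Ciart: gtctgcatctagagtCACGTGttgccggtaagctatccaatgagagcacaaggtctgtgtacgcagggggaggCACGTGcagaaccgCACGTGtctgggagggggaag
Tef: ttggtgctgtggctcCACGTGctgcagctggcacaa
Cry1: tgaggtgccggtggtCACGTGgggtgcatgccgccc
Per3: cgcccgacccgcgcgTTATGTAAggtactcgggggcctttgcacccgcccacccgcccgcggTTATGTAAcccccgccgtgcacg
Ciart holds 3 copies of the E-box and Per3 2 copies of the D-box. E-boxes stand both in genes with changes above 0 (Per1, Ciart, Tef, and Bhlhe41 with 1.90) and in Cry1, with a change of -0.87. A match is a description of the letters, not of a bound site.

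**Figure D4:**
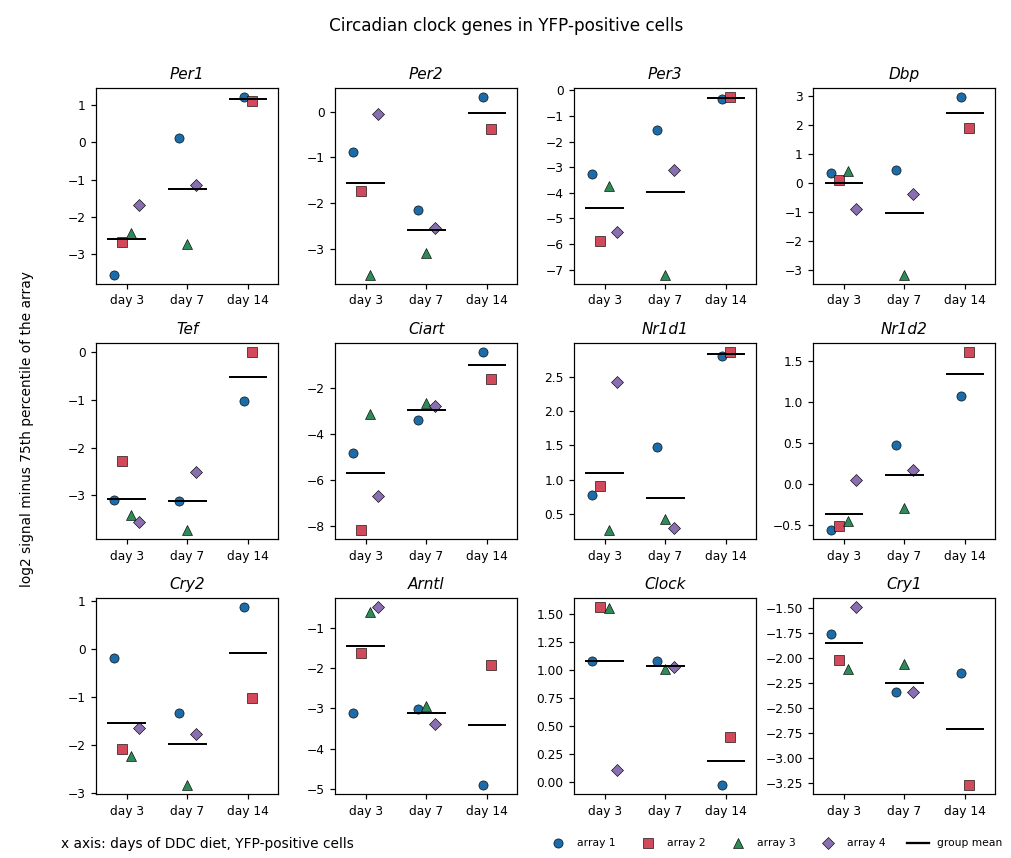
Level of 12 circadian clock genes on each array of YFP-positive cells (y axis, log2 signal minus the 75th percentile of the array) against days of DDC diet; symbols give the array number and lines the group means. Per1, Per3, Dbp, Tef, Ciart, Nr1d1 and Nr1d2 lie higher on both day 14 arrays than on all 4 day 3 arrays and Cry1 lower; none passed the threshold.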

How the data were processed

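RNA of sorted cells, amplified by a NuGEN kit (WT-Ovation Pico) and labelled with Cy3, was hybridised to 1-colour Agilent arrays, per the labels' protocols. The headers name Feature Extraction 10.5.1.1, the submitters' processing notes 9.53. The processed signal, mean signal and background are intensity values, per the file headers. The authors' deposited table gives signed linear folds against day 0 (a score without values between -1 and 1) and a false discovery rate in percent; its method is not given in the sources used here.

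Of 43379 non-control spots, outlier flags left out, 41174 probes were averaged. Levels are log2 of the deposited processed signal, less the array's 75th percentile, with no pseudocount. A probe needed 2 arrays well above background (39591 had them), and each gene took its brightest probe, which gave 26647 genes, 277 of them with a missing value. Names came through RefSeq of GRCm38.p6: 16246 genes by accession, 2385 by symbol, 859 by synonym, 7157 unmatched. Probe positions are in mm9, as deposited.

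All 7 groups (20 arrays) were fitted with limma 3.58.1 in R 4.3.3 (2.32 prior and 13 residual degrees of freedom, Benjamini-Hochberg over all genes, adjusted p under 0.05). The code was run on simulated data at these group sizes, with independent noise for each gene. That check asked only that mean estimates lie near the added changes and that false calls stay under a set limit. The simulated data held no slide or array effect, so the check does not bear on the calls above. The slide is the array barcode in the file names. Same-numbered arrays were compared by their deviations from the group means (correlations 0.076 and 0.061), and the main fit did not take the numbers to pair them. With only 2 day 14 arrays, whose deviations mirror each other, this comparison cannot decide whether the numbers pair the arrays.

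Gene lists (25 lists, 452 genes, 5 not measured), members and tests were chosen with earlier results of these data known; the clock list was added after its values were seen. Named genes are the 12 largest changes past the threshold in each direction, filled by smallest p among genes with an absolute log2 change of at least 1, no overlap, the same sign on both slides and under normexp and quantile processing, and the higher group above background on every array; from each list come the first member and the 3 of smallest p. Genes with clone identifiers only were counted, except Smarcal1, which was added after its values were seen. "At least N-fold" is nominal, since its floor is the dimmest detected signal on each array of the dimmer group. Alternatives were normexp (offset 50), quantile normalization, no filter, the mean of probes, the 6 arrays alone, slide and replicate blocks, array weights, and each array left out.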

Additional observations from a re-analysis of the deposited data

Results flagged for a closer look

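With 4 arrays at day 3, levels were checked for 1 array far from the other 3. The check covered the genes named by their change, Smarcal1, the clock genes and the median of each list. Single genes named only through the other lists were not checked. Of the 69 items checked 7 had such an array, and chance gives about 1 in 20. In Gdf9, array 4 read 1.96 against -1.50 to -1.10 on the others. For the stellate and myofibroblast list, array 4 had a median of -2.85 against -0.21 to -0.02. For the Notch list, array 4 had -1.39 against 0.13 to 0.35. For the immediate early and stress list, array 4 had 3.30 against 2.69 to 2.71. For the hepatocyte list, array 1 had 0.88 against -1.25 to -0.99. For the Hedgehog list, array 2 had -2.60 against -3.56 to -3.40. For the inflammatory signal list, array 3 had -0.13 against 1.18 to 1.44. In 4 of the 7 items it was array 4, and the cause was not tested.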

How the results depend on the processing

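The 24 genes named by their change, and Smarcal1, kept their sign in all 17 alternatives, 1 of them added after the data were seen. This is no sign of stability, since genes short of the threshold were chosen for groups without overlap and for their sign under several of these settings. Of 7 genes past the threshold, the count became 1 with normexp background, 3 with the mean of the probes, 0 with the 6 arrays alone, 15 when slide was a fixed block and 34 with both groups on slides 1 and 2 only (day 3 arrays 3 and 4 left out, the added alternative). It stayed within 1.5 times with quantile normalization, no filter, the slide as a random block and array weights. With the replicate number as a block the count was 0 in the 6 arrays and 3 (1 rose, 2 fell) in all groups. In the 6 arrays this block is the same as the slide, since arrays 1 of both days share a slide, as do arrays 2. The main fit did not take the numbers to pair arrays, and a pairing was not excluded. Leaving out 1 array gave 5 to 42. The difference between the fractions gave 1 gene with normexp background and 0 to 1 with an array left out, and the YFP-negative comparison 0 to 2. Fam65b and Smarcal1 passed in 13 alternatives each, Plcb1 in 11 and Ifi27 in 7. Normexp moved the median change of all genes from -0.04 to 0.29, so changes under it are to be read against that shift. The cause of these moves was not tested. The biliary median stayed above 0 (0.22 to 1.58) and the macrophage median below it (-3.83 to -0.90). The hepatocyte and endothelial medians changed sign in 6 and 7 of the 17. With 2 arrays at day 14, precision is limited by their number, and for genes not well above background on an array only nominal bounds are known.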
